A study of Mus musculus with 6 samples.

Results

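The miR-143 and miR-145 pair and the miR-199 and miR-214 group are miRNAs best known from mesoderm, smooth muscle and mesenchyme, and their levels were followed here in mouse embryonic stem cells (ESCs) across 3 culture media. The 8 members were taken by their mature names from a small RNA-sequencing count table of 1907 mature miRNAs. They are mmu-miR-143-3p, mmu-miR-143-5p, mmu-miR-145a-5p, mmu-miR-145a-3p, mmu-miR-199a-3p, mmu-miR-199a-5p, mmu-miR-199b-5p and mmu-miR-214-3p, written below without the prefix for mouse. Of these, 7 had counts in every library and 6 passed the filter on low counts, which kept 571 miRNAs. The other 2, miR-143-5p and miR-214-3p, did not pass the filter and are given by their counts. The filter was not an order of abundance, as miR-143-5p held 49 counts in all and the tested miR-199b-5p 43.

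The study sequenced the ESC lines RB18 and RB20, each in serum, 2i and R2i medium, with 1 library per line and medium and 6 libraries in all. Both lines came from C57BL/6 mice, were derived in R2i medium and were then kept in R2i or moved to 2i or serum for at least 10 passages on gelatin without feeder cells. Serum medium held 15% fetal bovine serum, whereas 2i and R2i were serum-free N2B27 media that favour the ground state of pluripotency, and all 3 held 1000 U/ml of the self-renewal factor LIF. 2i added 1 µM PD0325901, an inhibitor of the ERK pathway, and 3 µM CHIR99021, an inhibitor of GSK3. R2i added 1 µM PD0325901 and 10 µM SB431542, an inhibitor of TGF-β receptors. Each library was made from a pool of 3 cultures, so the spread between libraries of a medium is that between RB18 and RB20. Total counts ran from 1041858 to 3593356, with RB18 below RB20 in each of the 3 media, so a difference between lines and one of depth cannot be told apart. The ESC label was checked on 12 miRNAs of the pluripotency cluster that runs from miR-290a to miR-295. They summed to 367300 to 414000 CPM (counts scaled to a common library size) in each library. Of the 12, 0 passed the test in either direction between the serum-free media and serum (edgeR), where 37.0% of tested miRNAs did.

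A miRNA hairpin yields a 5p and a 3p arm, and usually one arm is kept in the silencing complex as the guide while the other is degraded. The seed, bases 2 to 8 of the mature miRNA, largely decides which messenger RNAs are bound. miR-143 and miR-145 are made from a shared primary transcript that serum response factor and myocardin drive in smooth muscle, and miR-145 is known to repress the pluripotency factors Oct4, Sox2 and Klf4 when ESCs differentiate. miR-199a and miR-214 are processed together from the long noncoding RNA Dnm3os, which Twist1 drives in embryonic mesenchyme, and miR-214 is known to repress the Polycomb enzyme Ezh2.

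The mature sequences of the miR-199 and miR-214 arms are shown because their shared seeds and shared letters decide how the counts below can be read. They are RefSeq sequences on GRCm38.p6, written 5′ to 3′ with the seed in capitals.
miR-199a-5p: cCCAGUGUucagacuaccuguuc
miR-199a-3p: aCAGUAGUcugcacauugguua
miR-199b-3p: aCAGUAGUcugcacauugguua
miR-214-3p: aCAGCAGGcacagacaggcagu
miR-214-5p: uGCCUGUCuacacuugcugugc
miR-199a-3p and miR-199b-3p are the same molecule, with no substitution between them, although they come from hairpins on different chromosomes. The seeds of miR-199a-3p and miR-214-3p differ by U5C and U8G, counted from the 5′ end of the mature miRNA. Among 1679 mature miRNAs in the RefSeq table, the seed of miR-214-3p was shared with miR-761, which had 0 counts in these libraries.

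Several hairpin genes can give miR-199. Mir199a-2 (GRCm38 chromosome 1, 162217814 to 162217923, plus strand) and Mir214 (162223368 to 162223477, plus strand) lie 5444 bases apart in an exon of Dnm3os, which runs antisense within an intron of Dnm3. Mir199a-1 lies antisense in an intron of Dnm2 on chromosome 9 (21496495 to 21496564, minus strand), and its mature arms have the same letters as those of Mir199a-2. Mir199b lies antisense in an intron of Dnm1 on chromosome 2 (32318460 to 32318569, plus strand). Counts of miR-199a therefore cannot be assigned to the Dnm2 or the Dnm3os copy. Reads of the 3p sequence also fit Mir199b, and how the counting split them between rows was not given in the sources used here.

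miR-143-3p, the arm that regulates smooth muscle and adipocyte differentiation, was the most abundant member and ranked 48th of the 1907 miRNAs by mean CPM. CPM here are counts scaled by library total and by edgeR's trimmed-mean (TMM) factor. How evenly different miRNAs were captured in the libraries was not measured, so ranks and ratios between miRNAs are those of reads. The level of miR-143-3p was 1317 CPM in serum RB18 and 1877 in serum RB20. In 2i it was 3113 CPM in RB18 and 3378 in RB20, and in R2i 2120 and 2208. Both serum libraries lay below all 4 serum-free libraries, and both R2i libraries lay between serum and 2i. The passenger arm miR-143-5p had 3, 8 and 2 counts in RB18 (serum, 2i and R2i in turn) and 6, 19 and 11 in RB20, and in sum held 49 counts against 33865 for the 3p arm. Over all libraries the 3p to 5p ratio was 691 (exact 95% counting interval 523 to 934). All intervals here cover counting error only, since reads without molecular identifiers are not independent molecules.

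The miR-145a arms were much lower than miR-143-3p, and their serum and serum-free libraries overlapped. miR-145a-5p, the guide arm, was at 66.8 CPM in serum RB18, 44.6 in serum RB20, 53.9 in 2i RB18, 89.1 in 2i RB20, 60.9 in R2i RB18 and 73.5 in R2i RB20. In RB18 the serum library was the highest of the 3 media, and in RB20 it was the lowest. miR-145a-3p, the less abundant arm, was at 14.8, 16.5 and 7.72 CPM in RB18 (serum, 2i and R2i in turn) and at 9.42, 16.2 and 12.6 in RB20, from 9 to 53 counts a library. The R2i RB18 value, from 9 counts, was the lowest of the 6, and the 2i libraries were the highest. The 5p to 3p ratio of miR-145a was 5.07 over all libraries (interval 4.33 to 5.97) and ran from 3.26 to 7.89 between libraries. miR-145b, from a hairpin elsewhere in the genome, had 0 counts in every library.

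**Figure D1:**
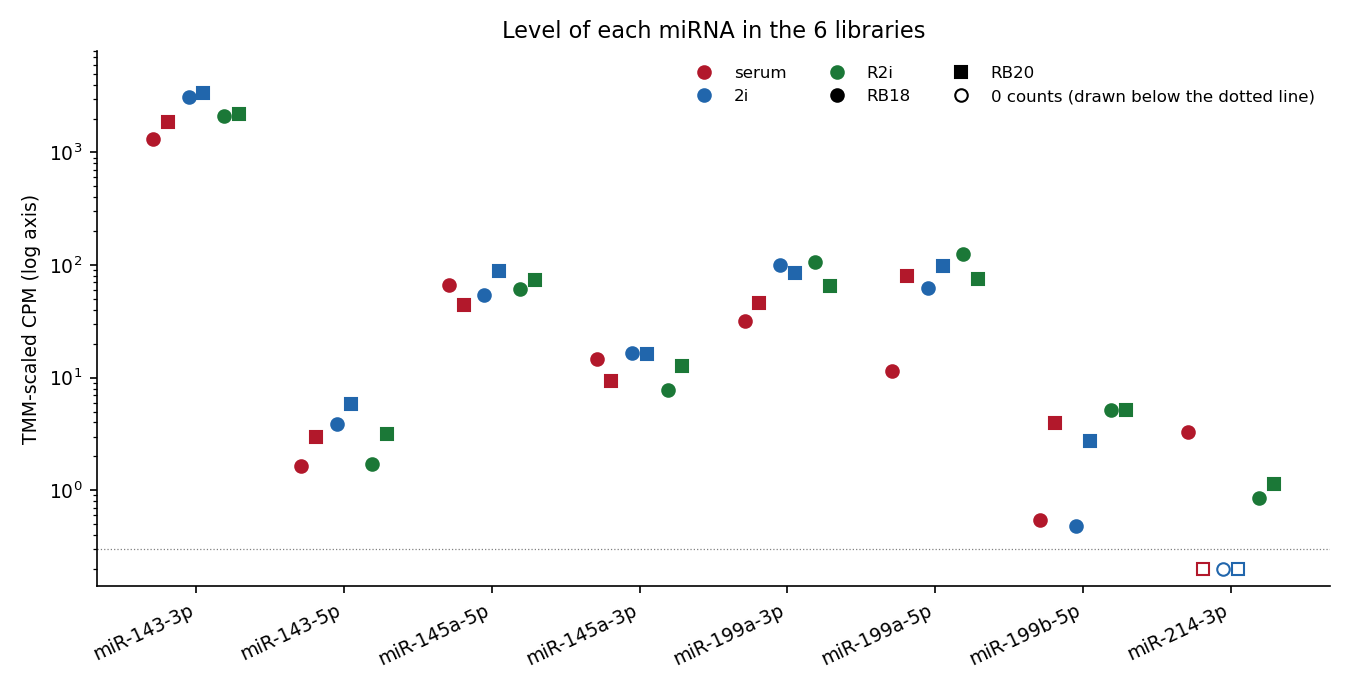
Level of each of the 8 miRNAs in TMM-scaled CPM on a log axis, with 1 point per library, colour for the medium and shape for the cell line, and libraries with 0 counts drawn as open points below the dotted line. miR-143-3p lies at 1317 CPM or more in every library, miR-145a-5p, miR-199a-3p and miR-199a-5p lie between 11.5 and 126 CPM, and miR-143-5p, miR-199b-5p and miR-214-3p lie below 6 CPM.

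Mir143 (GRCm38 chromosome 18, 61649196 to 61649258, minus strand) and Mir145a (61647825 to 61647894, minus strand) lie 1301 bases apart, outside any annotated gene, with the nearest gene on their strand, the noncoding RNA Carmn of the smooth muscle lineage, 367 and 1731 bases away. Although both are cut from a shared transcript, the ratio of miR-143-3p to miR-145a-5p counts was not the same in the libraries. It was 19.7 in serum RB18 (interval 16.4 to 23.9) and 42.1 in serum RB20 (34.1 to 52.5). In 2i it was 57.7 in RB18 (47.9 to 70.3) and 37.9 in RB20 (33.7 to 42.7), and in R2i 34.8 in RB18 (27.5 to 44.7) and 30.0 in RB20 (26.5 to 34.2). The lowest and the highest ratio both came from RB18, in serum and in 2i, and the media overlapped.

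The miR-199 arms were at a small share of the level of miR-143-3p. miR-199a-3p, which is known to repress Met and mTOR, was at 31.8 CPM in serum RB18 and 45.6 in serum RB20. It was at 100.5 and 84.8 CPM in 2i and at 106 and 64.6 in R2i (RB18 then RB20). Both serum libraries were again below all 4 serum-free libraries. The row of the identical miR-199b-3p held almost as much, with 31.2, 94.7 and 82.3 CPM in RB18 (serum, 2i and R2i in turn) and 41.6, 81.8 and 40.6 in RB20. Its R2i RB20 library lay within the serum values.

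miR-199a-5p, an arm linked to hypoxia and to fibroblast activation, was set apart by the serum libraries. It had 21 counts (11.5 CPM) in serum RB18 and 160 counts (79.3 CPM) in serum RB20. The other libraries held 62.2 CPM in 2i RB18, 98.9 in 2i RB20, 126 in R2i RB18 and 75.2 in R2i RB20. Serum RB20 thus lay inside the serum-free range and serum RB18 below it, from 7.11 to 17.6 CPM by its Poisson interval. This difference between lines in serum was 2.76 on the log2 scale, at the 97.9th percentile of its size among the 571 tested miRNAs. In the same serum RB18 library, miR-199a-3p was 0.52 lower on the log2 scale than in RB20.

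miR-199b-5p, whose mature sequence could not be matched here, had 1, 1 and 6 counts in RB18 (serum, 2i and R2i in turn) and 8, 9 and 18 in RB20. How well its reads were told apart from those of miR-199a-5p was therefore not checked. Over all libraries 1043 counts of miR-199a-5p stood against 43 of miR-199b-5p, a ratio of 24.3 (interval 17.9 to 33.7). The 3p rows, by contrast, stood at 985 against 842 counts, a ratio of 1.17 (interval 1.07 to 1.28). The near-even 3p rows and uneven 5p rows are both given as counted, and neither 3p row by itself measures a gene.

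The share of the 3p sequence that the table placed in the miR-199a row was 50.4% in serum RB18 (exact 95% interval 41.0 to 59.9) and 52.3% in serum RB20 (44.6 to 59.8). It was 51.5% in 2i RB18 (46.5 to 56.5) and 50.9% in 2i RB20 (46.6 to 55.2). In R2i it was 56.4% in RB18 (49.5 to 63.0) and 61.4% in RB20 (56.2 to 66.4). The R2i shares were the highest, and the interval of R2i RB20 did not include an even split. Added together, the 3p rows came to 62.9, 195 and 189 CPM in RB18 and to 87.2, 167 and 105 in RB20, with both serum libraries still the lowest.

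miR-214-3p was close to the limit of detection although its hairpin shares Dnm3os with Mir199a-2. It had 6 counts in serum RB18, 0 in serum RB20, 0 in both 2i libraries, 1 in R2i RB18 and 4 in R2i RB20. In the libraries with 0 counts, a floor of 3 counts equals 1.49 CPM in serum RB20, 1.46 in 2i RB18 and 0.916 in 2i RB20. The 95% Poisson interval of 0 counts reaches 1.83, 1.79 and 1.13 CPM in these libraries in turn. Its highest value, 3.28 CPM in serum RB18, came from the library in which miR-199a-5p was lowest. The passenger arm miR-214-5p had 2 counts in R2i RB20 and 0 elsewhere. Over all libraries 1043 counts of miR-199a-5p stood against 11 of miR-214-3p, a ratio of 94.8 (interval 52.8 to 191).

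**Figure D2:**
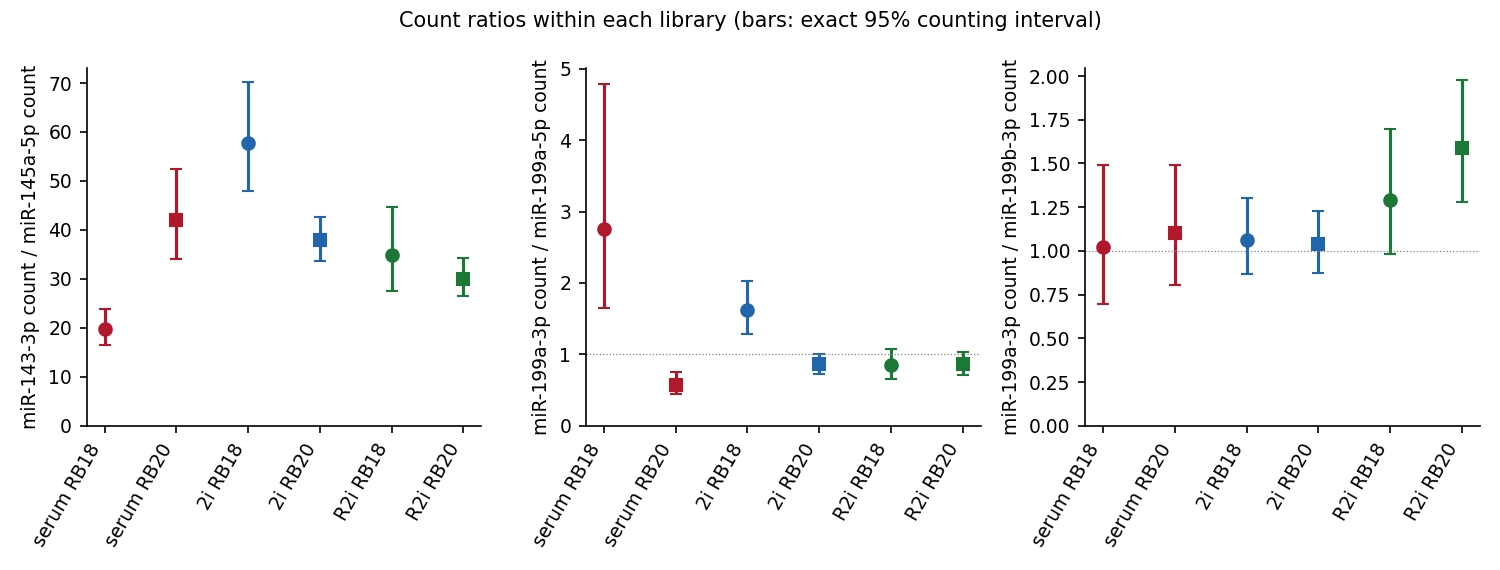
Ratio of counts within each library for miR-143-3p over miR-145a-5p, miR-199a-3p over miR-199a-5p and miR-199a-3p over miR-199b-3p, with colour for the medium, shape for the cell line and bars for the exact 95% counting interval. Serum RB18 has the lowest first ratio (19.7) and the highest second ratio (2.76), and in the third the R2i libraries (1.29 and 1.59) lie above the other 4 (1.02 to 1.1).

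Whether the members differed between the serum-free media and serum was tested with edgeR's quasi-likelihood test on all 571 miRNAs, with Benjamini-Hochberg adjustment. A call needed an adjusted p under 0.01 together with a more than 2-fold difference. In 2i and R2i together against serum 0 of the 6 tested members were called, where 37.0% of tested miRNAs were called in either direction. At an unadjusted p under 0.05, 2 of the 6 were higher in the serum-free media, where 57.6% of tested miRNAs had such a p in either direction. DESeq2 and limma each called 1 member, among 221 and 204 miRNAs called. The 6 log2 fold changes were all above 0, as were 49.0% of those over all tested miRNAs. The median of the 6 was 0.56 against -0.02 over all tested miRNAs. The 6 include pairs of arms from the same hairpin, so their signs are not independent. miR-199b-5p passed the filter through its R2i libraries, where it was highest. The values of miR-145a-3p and miR-199b-5p turned below 0 when single libraries were left out.

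Among the members, miR-199a-3p and miR-143-3p had the lowest adjusted p-values, and miR-199a-3p narrowly missed the limit on p. The log2 fold change of miR-199a-3p was 1.19 (SE 0.29, adjusted p = 0.0104, edgeR), higher in both lines. For miR-143-3p it was 0.73 (SE 0.22, adjusted p = 0.0259, edgeR), also higher in both lines but under 2-fold. The row of miR-199b-3p, the same molecule as miR-199a-3p, came to 0.99 (SE 0.32, adjusted p = 0.0341, edgeR). Both 3p rows added, a step chosen after the data were seen, came to 1.12 (SE 0.31, adjusted p = 0.0176, edgeR). At a looser adjusted p of 0.05 with the same fold limit, miR-199a-3p alone of the members passed, against 20.1% of tested miRNAs that passed as higher. Without serum RB18 its adjusted p was 0.064. These 2 of the 6 members also had both serum libraries below all 4 serum-free libraries, which 29.1% of the tested miRNAs did.

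The other members gave smaller or less certain values in the same comparison. miR-145a-5p had a log2 fold change of 0.33 (SE 0.29, adjusted p = 0.372, edgeR), which moved from 0.06 without serum RB20 to 0.72 without serum RB18. miR-145a-3p had one of 0.13 (SE 0.34, adjusted p = 0.778). miR-199a-5p came to 0.97 (SE 0.64, adjusted p = 0.236, edgeR), and this value moved from 0.26 without serum RB18 to 2.96 without serum RB20. miR-199b-5p, with few counts, came to 0.39 (SE 0.85, adjusted p = 0.738, edgeR).

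In 2i against serum, 0 of 6 members were called with edgeR, where 34.2% of tested miRNAs were. At an unadjusted p under 0.05 the count was 2, against 57.6% of tested miRNAs, and DESeq2 called 2 members among 219 miRNAs and limma 1 among 194. The log2 fold change of miR-143-3p was 1.02 (SE 0.25, adjusted p = 0.011, edgeR), with 2.36-fold in RB18 and 1.80-fold in RB20. That of miR-199a-3p was 1.26 (SE 0.32, adjusted p = 0.0139, edgeR), with 3.17-fold in RB18 and 1.86-fold in RB20. Both passed at an adjusted p of 0.05 with the same fold limit, as did 21.9% of tested miRNAs in the higher direction. miR-143-3p fell under 2-fold, and so no longer passed, without 2i RB20 (log2 fold change 0.96) or serum RB18 (0.87). miR-199a-3p stayed above 2-fold but missed the limit on p without 2i RB18 (log2 fold change 1.16) or serum RB18 (1.1). Each of these fits left 1 library alone in its medium. The identical miR-199b-3p row came to 1.27 (SE 0.36, adjusted p = 0.0197, edgeR).

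In R2i against serum, 0 of 6 members were called, where 30.6% of tested miRNAs were. At an unadjusted p under 0.05 the count was 1, against 49.6% of tested miRNAs, and DESeq2 called 1 member among 187 miRNAs and limma 0 among 173. miR-199a-3p had a log2 fold change of 1.12 (SE 0.33, adjusted p = 0.0256, edgeR), with 3.35-fold in RB18 and 1.42-fold in RB20. It alone of the members passed at an adjusted p of 0.05 and more than 2-fold, where 18.2% of tested miRNAs did so as higher. With the cell line as a block its adjusted p was 0.0508 (edgeR), and its log2 fold change was 0.73 without R2i RB18 (adjusted p = 0.122) and 0.98 without serum RB18 (adjusted p = 0.104). The log2 fold change of miR-143-3p was 0.44 (SE 0.25, adjusted p = 0.201, edgeR). The miR-199b-3p row came to 0.72 (SE 0.37, adjusted p = 0.157), lower than the row of the same molecule named miR-199a-3p, and with both rows added the value was 0.97 (adjusted p = 0.0556, edgeR). This addition was chosen after the data were seen.

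The serum-free media were also compared with each other, as GSK3 inhibition in 2i is replaced by TGF-β receptor inhibition in R2i. In 2i against R2i 0 of 6 members were called by edgeR, DESeq2 or limma, where edgeR called 0.350% of tested miRNAs, and 1 member had an unadjusted p under 0.05, as had 18.2% of tested miRNAs. That member was miR-143-3p, with a log2 fold change of 0.58 (SE 0.25, adjusted p = 0.271, edgeR) and each 2i library above each R2i library. miR-145a-3p came to 0.61 (SE 0.38, adjusted p = 0.437), and miR-199b-5p to -1.49 (SE 0.88, adjusted p = 0.413, edgeR) from few counts. As miR-199b-5p passed the filter through its R2i libraries, a value below 0 was favoured here. The values of miR-145a-5p, miR-199a-3p and miR-199a-5p were 0.09, 0.13 and -0.30. The adjusted p-values rest on 2 libraries per medium and on the spread that edgeR shares between miRNAs, since a permutation of 2 against 2 libraries cannot go below a two-sided p of 0.33. The serum libraries serve as control in all comparisons against serum, so those values are not independent.

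**Figure D3:**
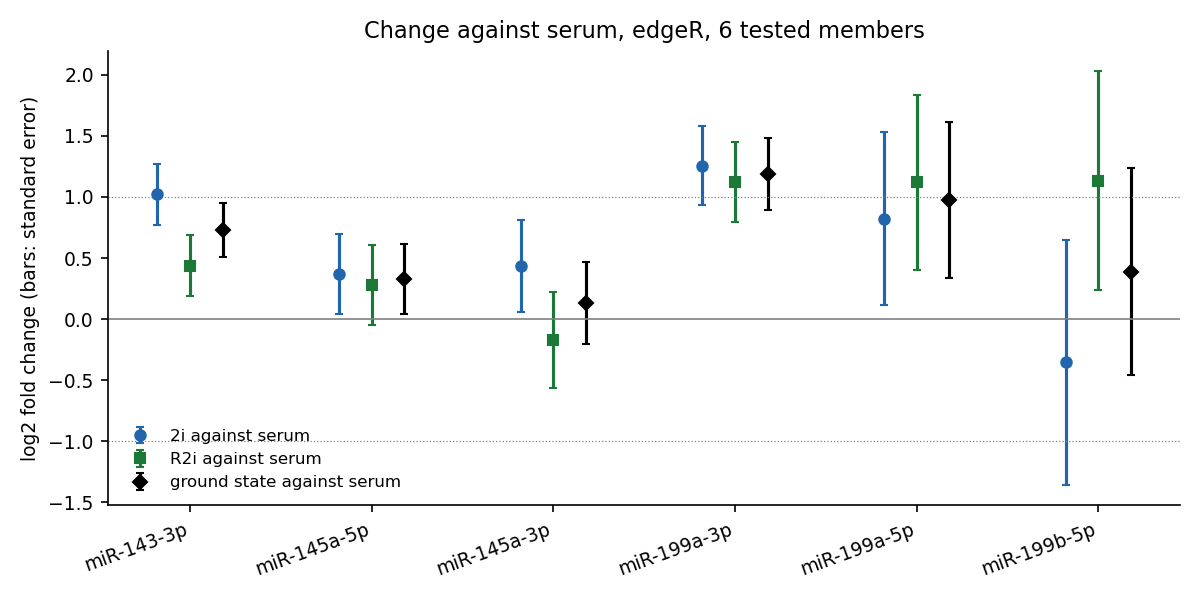
Log2 fold change of the 6 tested members against serum from edgeR, for 2i, R2i and both together, with bars for the standard error and dotted lines at a 2-fold change. miR-199a-3p lies above the upper dotted line in all 3 comparisons (1.26, 1.12 and 1.19), and the bars of miR-199a-5p and miR-199b-5p are the widest.

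**Figure D4:**
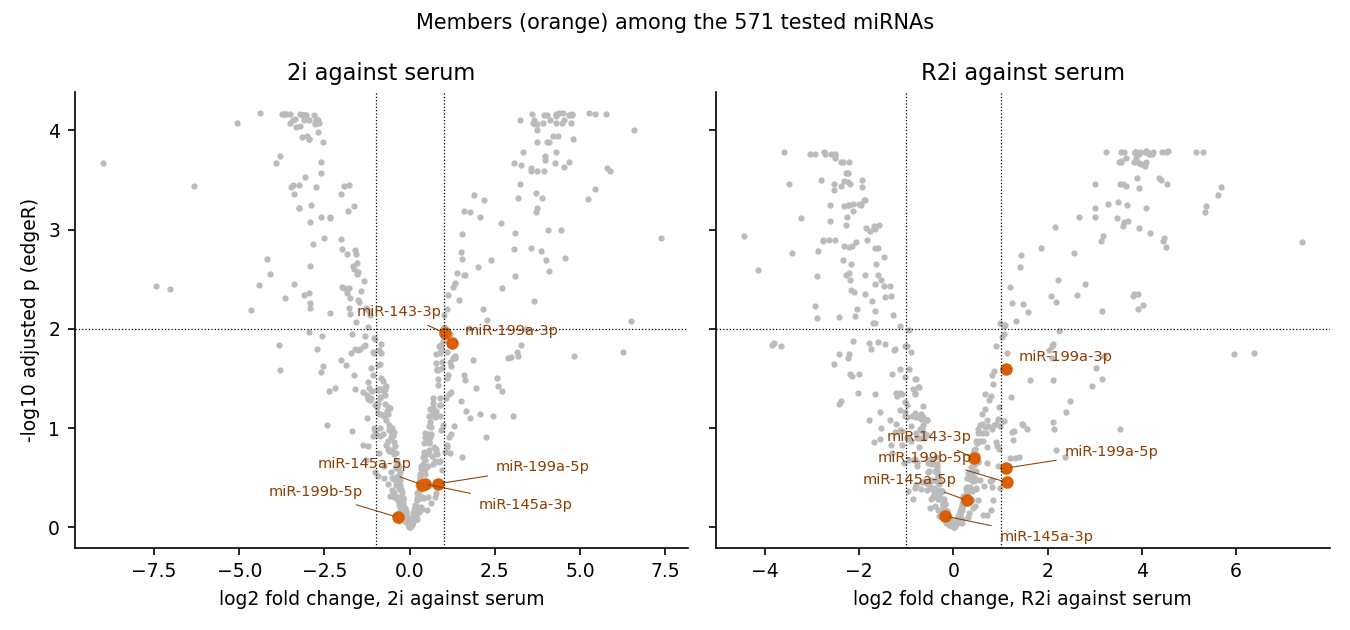
Log2 fold change against -log10 of the adjusted p (edgeR) for the 571 tested miRNAs in 2i and R2i against serum, with the 6 members in orange and dotted lines at the limits of 2-fold and an adjusted p of 0.01. miR-143-3p and miR-199a-3p lie just under the horizontal line in 2i, with adjusted p of 0.011 and 0.0139, and the other members lie lower.

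The change from serum to the serum-free media was then compared between the lines. This fit took the 2i and R2i libraries of a line as replicates, with 1 serum library per line. Its error is therefore the difference between 2i and R2i within a line, not a spread between cultures of a medium. For miR-199a-5p RB18 gave a log2 change of 3.02 and RB20 one of 0.13, and RB20 minus RB18 was -2.88 (SE 0.78, unadjusted p = 0.0125, adjusted p = 0.79, edgeR interaction). The interaction had an adjusted p under 0.05 for 0 of the 571 tested miRNAs and an unadjusted p under 0.05 for 27 of them (4.73%). For miR-199a-3p the change was 1.70 in RB18 and 0.71 in RB20, and for miR-143-3p 0.99 and 0.57, so both lines had the same direction. A difference between the lines was not shown for any of the 6 members.

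Related miRNAs were placed beside the members with lists named for tissues. Of 18 tested other mesenchymal miRNAs, 4 fell and 1 rose in the serum-free media against serum (edgeR, adjusted p under 0.01 and more than 2-fold), and over all 571 tested miRNAs 114 fell and 97 rose. A share of 5 of 18 is no larger than the 37.0% called over all miRNAs. On the log2 scale the Hox-cluster miRNA miR-10a-5p fell by 3.06 and the growth-linked miR-21a-5p fell by 2.62. miR-22-3p fell by 1.62 and miR-31-5p fell by 1.24. miR-218-5p, hosted by Slit genes, rose by 1.20. The summed level of this list was 37760 to 43900 CPM in serum and 13290 to 15800 in the serum-free media, and in serum it was mostly miR-21a-5p (17070 and 17080 CPM) and miR-22-3p (22370 and 14110). The summed members, mostly miR-143-3p, were at 1448 and 2062 CPM in serum and 2428 to 3676 in the serum-free media. The list's median log2 fold change was -0.10 and that of all tested miRNAs -0.02.

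Markers of muscle, epithelium, endothelium and blood were followed beside the members. By the same test and limits, 37.0% of the 571 tested miRNAs were called in the serum-free media against serum, 114 lower and 97 higher. Of the 4 tested muscle miRNAs, miR-1a-3p fell by 5.95 on the log2 scale, miR-133a-3p fell by 5.38 and miR-208b-3p fell by 4.16, and miR-499-5p rose by 3.12. miR-1a-3p, which defines heart and skeletal muscle, was at 28.5 and 27.2 CPM in serum, 0 in both 2i libraries and 6.00 and 2.57 in R2i. The muscle list summed to 188 and 109 CPM in serum (RB18 then RB20) and 95.2 to 184 in the serum-free media. In the serum-free media this sum was mostly miR-499-5p (81.46 to 175 CPM), which was at 15.87 and 16.35 CPM in serum. Of 7 epithelial miRNAs 4 fell, and these were miR-203-3p, which fell by 4.0 on the log2 scale, miR-200b-3p, which fell by 1.64, miR-205-5p, which fell by 1.36, and miR-200a-3p, which fell by 1.17. The epithelial list summed to 11400 and 13720 CPM in serum and 5079 to 7879 in the serum-free media. Of the 2 endothelial miRNAs 0 passed (edgeR), at 634 and 1143 CPM summed in serum and 655 to 765 in the serum-free media.

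Of 6 tested blood and plasma miRNAs, the erythroid miR-451a rose by 4.07 on the log2 scale from 0 and 1.49 CPM in serum to between 8.24 and 18.9 in the serum-free media. The median log2 fold change of that list was -0.75. In R2i against serum 1 of the 6 was called lower, as were 89 of the 571 tested miRNAs. The list summed to 3340 and 3386 CPM in serum and 828 to 5267 in the serum-free media, and miR-223-3p, a myeloid marker, was at 0 in every library. The part of other cells or of serum in the members' levels was not tested, and in bulk libraries fewer cells of a type and less RNA per cell cannot be told apart.

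The tested miRNAs whose profile over the 6 libraries was nearest to each member were found by the root mean square difference of mean-centred log2 CPM, a description over 6 libraries of unequal depth. For miR-143-3p these were miR-107-3p (0.0823), miR-3062-5p (0.12) and miR-291b-3p (0.172), against a median of 0.827 over 564 candidates. miR-199a-3p was nearest to miR-7068-3p (0.186), miR-465c-5p (0.199) and miR-465b-5p (0.211). miR-145a-5p was nearest to miR-664-3p (0.183), miR-3102-3p (0.213) and miR-877-5p (0.22), and miR-145a-3p to miR-671-5p (0.167), miR-330-5p (0.172) and miR-1306-5p (0.174). The neighbours of miR-199a-5p were less near, at 0.431 for miR-760-3p, 0.504 for miR-471-5p and 0.529 for let-7c-2-3p. Those of miR-199b-5p were also less near, at 0.495 for miR-871-5p, 0.524 for let-7b-5p and 0.586 for miR-3535. The medians over all candidates were larger for these members too, at 1.27 for miR-199a-5p and 1.41 for miR-199b-5p. The sum of the miR-143 and miR-145a arms had the same 3 neighbours as miR-143-3p, and the sum of the miR-199 and miR-214 members was nearest to miR-465c-5p (0.258), let-7c-2-3p (0.259) and miR-465b-5p (0.283).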

How the data were processed

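Small RNA was sequenced from 6 ESC libraries. The authors deposited raw read counts per mature miRNA and, for the 1233 miRNAs with at least 1 count, log2 values. The submitters' processing notes name FastQC 0.11.5, cutadapt 1.3, Bowtie 1.1.2, featureCounts 1.5 and the build mm10 (GRCm38). The treatment of reads that match several hairpins and the strand setting were not given in the sources used here. The deposited log2 values equalled the log2 of count divided by a median-of-ratios factor plus 1 (within 0.011).

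Members were taken by name, and members and lists were chosen with earlier results of these data known. All 8 members, their hairpin partners, the listed miRNAs called in the serum-free media against serum and the 3 nearest profiles were to be named. Counts were tested in R 4.3.3 with edgeR 4.0.16 (TMM, filterByExpr with a minimum count of 10 and minimum total of 15, 1 coefficient per medium, 6 libraries, Benjamini-Hochberg over 571 miRNAs). The common biological coefficient of variation was 24.6%. DESeq2 1.42.0, limma 3.58.1 on the deposited log2 values, other scalings and filters, each library left out and the cell line as a block were alternatives. Libraries of different media are paired by cell line, as the labels name it: differences between lines correlated across miRNAs with r of 0.21 (serum with 2i), 0.207 (2i with R2i) and -0.121 (serum with R2i). In simulated counts with 4-fold changes, 89.9% of changed tested miRNAs were recovered for the serum-free media against serum, 82.6% for 2i and 85.3% for R2i. The simulation gave every miRNA the common coefficient of variation and no difference between lines. Its changes were larger than those of the members against serum, so these shares do not apply to changes of the members' size. Annotation was GENCODE on GRCm38, and mature sequences were from RefSeq, where 3 of the 8 members were matched.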

Additional observations from a re-analysis of the deposited data

Results flagged for a closer look

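miR-145a-5p moved in opposite directions in the cell lines: in RB18 both serum-free libraries (53.9 and 60.9 CPM) were below serum (66.8), and in RB20 both (89.1 and 73.5) were above it (44.6). RB18 gave a log2 change of -0.22 and RB20 one of 0.86, and RB20 minus RB18 was 1.09 (SE 0.48, unadjusted p = 0.0705, adjusted p = 0.79, edgeR interaction), so a difference between the lines was not shown.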

How the results depend on the processing

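In the reported fit 0 members were called in each comparison. In the serum-free media against serum, 1 member was called at an adjusted p of 0.05, with library totals or RLE factors in place of TMM, with at least 10 counts in every library, without the 5 most abundant miRNAs, with DESeq2 and with limma, and 2 were called with no filter. In 2i against serum, 2 were called at an adjusted p of 0.05, with RLE factors, no filter, at least 10 counts, without the 5 most abundant miRNAs and with DESeq2, and 1 with library totals and limma. In R2i against serum, 1 was called at an adjusted p of 0.05 and with DESeq2, and 2 with no filter. Leaving out 1 library gave 0 to 2 calls in the serum-free media against serum (2 without serum RB20, 1 without R2i RB20) and 0 to 1 in 2i against serum (1 without serum RB20 or R2i RB18).

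miR-199a-3p in the serum-free media was called in 8 of 16 settings, with log2 fold changes from 1.00 to 1.47, and miR-143-3p in 2i in 8 of 17, from 0.87 to 1.3. With the cell line as a block 0 members were called and all 24 member values kept their direction. Leaving out 1 library turned some signs, and the library left alone in its medium was then assumed to vary like the others. The values ran from -0.16 to 0.56 for miR-145a-3p and -0.50 to 2.37 for miR-199b-5p in the serum-free media, and from -0.0447 to 0.77 for miR-145a-5p and -2.12 to 1.63 for miR-199b-5p in 2i. They ran from -0.64 to 0.26 for miR-145a-3p in R2i. In 2i against R2i they ran from -0.33 to 0.39 for miR-145a-5p, -0.20 to 0.56 for miR-199a-3p and -0.68 to 0.14 for miR-199a-5p. Among all tested miRNAs, at least 10 counts in every library left 135 calls in place of 211 in the serum-free media and 128 in place of 195 in 2i. In R2i the 175 calls became 112 without R2i RB18, and in 2i against R2i the 2 calls became 25 with no filter, 12 with DESeq2 and 0 with the block. The causes were not tested.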
